A study of Mus musculus with 35 samples.

Results

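Arginine can be cleaved by arginase to ornithine and urea, or oxidized by nitric oxide synthase to citrulline and nitric oxide, so the enzymes compete for one substrate. Ornithine feeds the polyamines putrescine, spermidine and spermine, which bind nucleic acids and are made and broken down by tightly regulated enzymes. In mouse macrophages, arginase 1 is a classical product of IL-4 signalling and inducible nitric oxide synthase of interferon and bacterial signals, which is why both are used as markers of macrophage state after brain injury. The 10 genes described here were chosen by name from the 21203 genes of the deposited table, with earlier results of these data known. They are the arginine transporter Slc7a2, the arginases Arg1 and Arg2, the nitric oxide synthase Nos2, the arginine-making enzymes Ass1 and Asl, the polyamine-making enzymes Odc1 and Srm, and the polyamine-degrading enzymes Sat1 and Smox. All 10 passed the filter on low counts and were among the 17131 genes tested.

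RNA-seq was done on brain tissue of 34 C57BL/6NCrl mice, 1 library per mouse. Per the study's methods the mice were male and 8 to 9 weeks old at the start. The 6 injured groups, of 5 mice each or 4 with PBS at 3 weeks, had a closed head injury and 5 days later an injection in the left hippocampus. It carried PBS, MSCs or IL-4 MSCs. The Sham group of 5 mice had neither the injury nor the injection. MSCs are mesenchymal stromal cells, here from C57BL/6N mice, and IL-4 MSCs are the same cells transfected with synthetic mRNA for interleukin 4. Tissue was taken at 1 week post-injury (wpi), which was 2 days after treatment, or at 3 wpi, which was 16 days after treatment. Of the sham mice 2 were collected at week 1 and 3 at week 3. The authors excluded 1 more PBS mouse of 3 wpi. The labels give the tissue as left cortex and the methods as the region around the injection. Markers of cortical excitatory neurons were present in every group, with summed means between 1151 and 1344 CPM. Those of the hippocampus were too, with means of 182 to 202 CPM. Markers of the striatum varied between mice from 208 to 2480 CPM, and their values are given beside the results they touch. CPM are the estimated counts scaled for library size with TMM factors. The libraries held 29838423 to 41554322 estimated counts, so that 3 counts, taken as the lowest detectable level, were 0.0722 to 0.101 CPM, which covers counting error only. All genes were tested by the quasi-likelihood method of edgeR in 1 fit of all libraries, and a gene was called changed at a Benjamini-Hochberg adjusted p under 0.05 over all genes tested. In whole tissue, fewer cells of a type and less RNA per cell cannot be told apart.

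At 1 wpi, 5 of the 10 genes, Arg1, Nos2, Odc1, Slc7a2 and Sat1, were higher with IL-4 MSCs than in Sham, PBS or MSCs, and none was lower. Of the 17131 genes tested, 3157 were called higher with IL-4 MSCs than in Sham, 1918 than in PBS and 1312 than with MSCs. Called in either direction were 37%, 17.4% and 8.69%. In PBS and with MSCs, Arg1, Odc1, Slc7a2 and Sat1 were also higher than in Sham, 4 of 10 genes in each. Of all genes, 1495 and 1876 were higher, and 13.8% and 17.8% were called in either direction. These comparisons share the Sham mice. Because the 10 genes were chosen with earlier results known, their shares beside those of all genes are a description. The median log2 difference over the 10 genes, of which 5 were called, was 0.35 with IL-4 MSCs against Sham and 0.26 against PBS. The median over all genes lay within 0.03 of 0 in every comparison. TMM scaling holds the bulk of genes near 0, so that value was close to fixed beforehand. In MSCs against PBS, edgeR called 0 of the 10 genes at either week, with 0 at an unadjusted p under 0.05 and 0 by DESeq2, beside 0.123% of all genes at 1 wpi and 0.0817% at 3 wpi. By 3 wpi the 5 genes were back at levels that overlapped with Sham. Markers of several cell types moved with these genes at 1 wpi, and their part was not tested. The macrophage markers are given with Arg1 and those of endothelium with Nos3. The summed level of 5 fibroblast and stromal markers (Col1a1, Col1a2, Dcn, Lum and Prrx1) was 79.3 CPM in Sham (range 60.3 to 105), 111 in PBS (96.5 to 154), 277 with MSCs (161 to 439) and 226 with IL-4 MSCs (201 to 257). With IL-4 MSCs 4 of the 5 were called higher against Sham, 3 against PBS and 1 against MSCs. The sum of 5 astrocyte markers was 1084 CPM in Sham (1003 to 1150), 2061 in PBS (1907 to 2397), 2044 with MSCs (1896 to 2199) and 2275 with IL-4 MSCs (2030 to 2612). All 5 were called higher than in Sham in each injured group at 1 wpi, and 0 with IL-4 MSCs against PBS or MSCs. The median log2 difference from Sham over the 5 was 0.36 in PBS, 0.31 with MSCs and 0.42 with IL-4 MSCs. The typical marker thus rose by less than the sum.

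**Figure D1:**
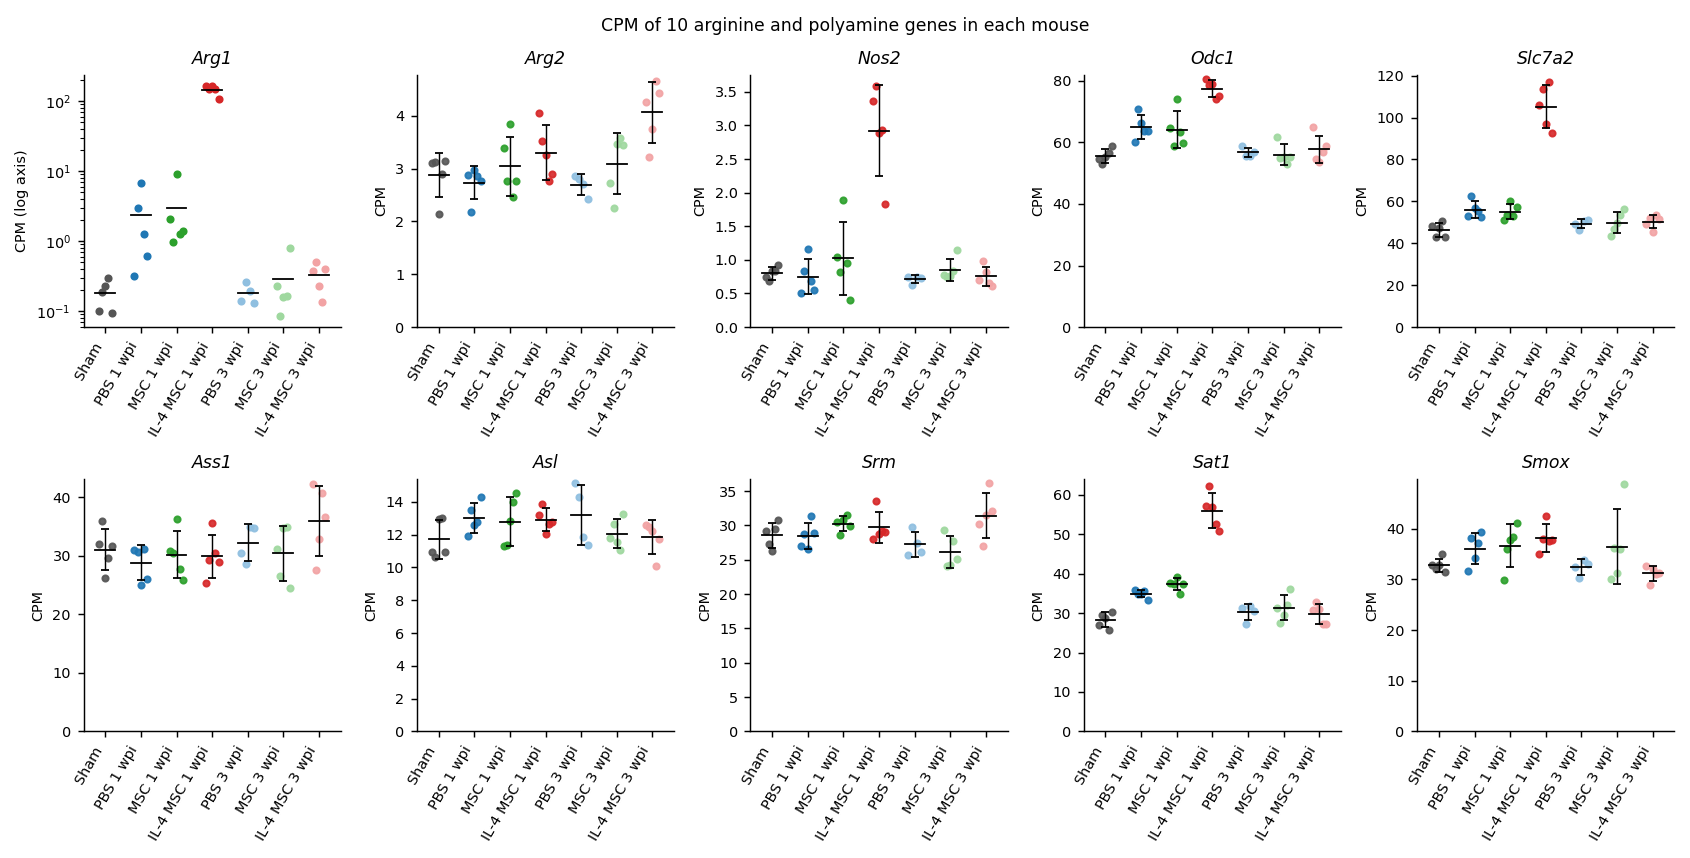
CPM of each of the 10 genes in each mouse (points) of the 7 groups. Horizontal lines are group means and bars are SD (n = 5, or 4 in PBS at 3 wpi). The Arg1 axis is logarithmic and has no SD bars. Arg1, Odc1, Slc7a2 and Sat1 were higher in every IL-4 MSC mouse at 1 wpi than in any other mouse, and Ass1, Asl and Srm had overlapping points in all groups. How many of all genes were set apart in this way was not counted.

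Arg1 (chr10:24915221-24927484 of GRCm38, minus strand) encodes the cytosolic arginase. Sham mice 1 to 5 had 3, 6, 8, 12 and 3 estimated counts, or 0.0926 to 0.295 CPM, so that Arg1 was at or just above the lowest detectable level. The 5 PBS mice at 1 wpi had 0.317, 2.98, 6.68, 1.26 and 0.616 CPM, and the 5 mice with MSCs had 2.08, 0.971, 9.05, 1.27 and 1.37 CPM. All of them lay above every sham mouse, but they differed among themselves by more than an order of magnitude in PBS. The mice with IL-4 MSCs had 164, 148, 163, 147 and 106 CPM. These 5 mice stood far above all others and were close to each other. Against Sham, the log2 difference was 3.63 ± 0.85 (SE) in PBS, with an adjusted p of 0.00315 by edgeR, and 3.99 ± 0.81 with MSCs, with an adjusted p of 0.000555. IL-4 MSCs were 61.4-fold above PBS (log2 5.94 ± 0.45, edgeR adjusted p = 1.96e-11) and 47.9-fold above MSCs (log2 5.58 ± 0.43, edgeR adjusted p = 6.27e-11). The difference between MSCs and PBS was 0.36, with a 95% interval of -0.66 to 1.38. Replicate 3 of PBS and replicate 3 of MSCs weighed on the sizes of these differences. Without that PBS mouse the log2 difference was 2.85 for PBS against Sham and 6.76 for IL-4 MSCs against PBS. Without that MSC mouse it was 2.92 for MSCs against Sham and 6.67 for IL-4 MSCs against MSCs. All 4 were still called.

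In PBS at 1 wpi, replicates 2 and 3, with 2.98 and 6.68 CPM of Arg1, had summed levels of the 10 macrophage and monocyte markers of 191 and 168 CPM, against 122 to 142 in the other 3 mice. With MSCs, replicate 3, with 9.05 CPM of Arg1, had 220 CPM of these markers, against 140 to 167 in the other 4. With IL-4 MSCs replicates 1 to 5, the sums were 467, 417, 340, 410 and 328 CPM, and the order of the mice was not that of Arg1, since replicate 3 had 163 CPM of Arg1 but fewer marker transcripts than replicates 1, 2 and 4. The neutrophil marker sum was 21.1 CPM in PBS replicate 3 and 21.8 CPM in MSC replicate 3, the highest of each group. Across groups the macrophage marker sum was 59.0 CPM in Sham (range 46.8 to 89.9), 152 in PBS (122 to 191), 165 with MSCs (140 to 220) and 393 with IL-4 MSCs (328 to 467), and 10 of 10 markers were called higher with IL-4 MSCs than in Sham. The part of these cells in the Arg1 difference was not tested. Per 100 CPM of macrophage markers, Arg1 stood at 0.338 ± 0.191 CPM in Sham (SD, n = 5), 1.43 ± 1.51 in PBS, 1.57 ± 1.44 with MSCs and 37.3 ± 6.04 with IL-4 MSCs. The lowest mouse with IL-4 MSCs, at 32.3, was above the highest of the other groups, at 4.12. One of the markers, Mrc1, is itself induced by IL-4 in macrophages, and without it the ratio with IL-4 MSCs was 49.0 ± 9.03. Markers of microglia, the resident macrophages of the brain, were at 195 CPM in Sham (178 to 227). They were at 306 CPM in PBS and with MSCs and 322 CPM with IL-4 MSCs, with ranges that overlapped among these injured groups. Against Sham, 5 of 6 markers were called higher in each injured group, and 1 of 6 with IL-4 MSCs against PBS or MSCs. The part of microglia was not tested. Eosinophil markers had 3.83 CPM with IL-4 MSCs and 1.48 in PBS.

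Arg2 (chr12:79130777-79156301, plus strand) encodes the mitochondrial arginase. At 1 wpi its means were 2.88 ± 0.426 CPM in Sham, 2.73 ± 0.315 in PBS, 3.05 ± 0.559 with MSCs and 3.30 ± 0.515 with IL-4 MSCs (SD, n = 5), and it was called in none of these comparisons. Per length, as the authors' TPM, which are counts scaled for transcript length and library size, Arg2 was the more abundant arginase in Sham, with 4.69 ± 0.718 TPM against 0.283 ± 0.135 TPM of Arg1. Arg1 made up 5.89% ± 3.14 of arginase TPM in Sham, 36.4% ± 25.2 in PBS, 39.4% ± 17.3 with MSCs and 97.7% ± 0.349 with IL-4 MSCs. At 3 wpi the share was 6.01% in PBS, 7.53% with MSCs and 7.39% with IL-4 MSCs. The transcripts of arginase in the tissue were thus mostly those of Arg2 in 3-wpi and sham mice and almost wholly those of Arg1 2 days after IL-4 MSCs.

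Nos2 (chr11:78920787-78960254, plus strand) encodes inducible nitric oxide synthase, and it was at a low level everywhere. Sham mice had 0.738, 0.680, 0.831, 0.837 and 0.926 CPM. Mice with PBS at 1 wpi had 0.507, 0.841, 1.16, 0.691 and 0.557 CPM, around the sham values. Mice with MSCs had 1.04, 0.820, 1.90, 0.955 and 0.406 CPM, and the highest of them was replicate 3, which also had the most Arg1. Mice with IL-4 MSCs had 3.36, 3.59, 2.89, 2.94 and 1.83 CPM, from 63 to 131 estimated counts. All 5 were above all sham and PBS mice, and the lowest was below the highest mouse with MSCs. Against Sham, Nos2 was 3.62-fold higher with IL-4 MSCs (log2 1.86 ± 0.24, edgeR adjusted p = 2.37e-07), and against PBS and MSCs it was 3.88-fold and 2.82-fold higher. Nos2 was not called in PBS against Sham, where the log2 difference was -0.10, with a 95% interval of -0.64 to 0.44.

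Both Arg1 and Nos2 were thus higher with IL-4 MSCs, but Arg1 by far more. The ratio of Arg1 to Nos2 TPM was 0.608 ± 0.268 in Sham, 7.16 ± 6.03 in PBS, 7.12 ± 4.41 with MSCs and 151 ± 20.9 with IL-4 MSCs at 1 wpi. The lowest mouse with IL-4 MSCs had a ratio of 121 and the highest of the other groups 16.6. At 3 wpi the means were 0.750 in PBS, 0.841 with MSCs and 1.19 with IL-4 MSCs. Nos2 remained the lesser nitric oxide synthase. It made up 1.68% ± 0.357 of the TPM of Nos1, Nos2 and Nos3 in Sham and 5.42% ± 1.25 with IL-4 MSCs at 1 wpi.

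**Figure D2:**
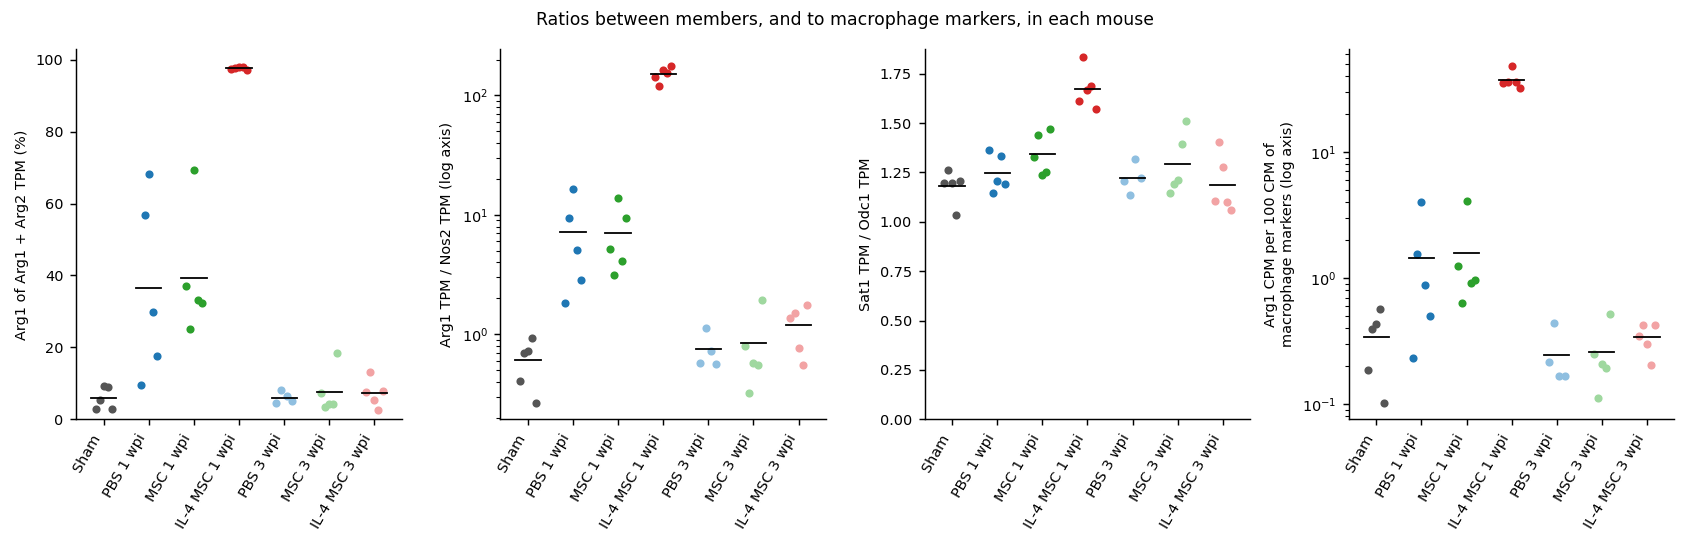
Ratios in each mouse (points) of the 7 groups, with group means as lines. From left to right, Arg1 as a percent of arginase TPM, Arg1 TPM over Nos2 TPM (log axis), Sat1 TPM over Odc1 TPM, and Arg1 CPM per 100 CPM of macrophage markers (log axis). The mice with IL-4 MSCs at 1 wpi lay above all others in each panel, with Arg1 at 97.2% to 98.1% of arginase TPM.

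Slc7a2 (chr8:40862396-40922308, plus strand) encodes the cationic amino acid transporter that brings arginine into macrophages and other cells. The 5 sham mice had 48.4, 42.8, 47.2, 50.4 and 42.9 CPM. PBS mice at 1 wpi had 52.9, 62.3, 57.0, 55.5 and 52.6 CPM, and mice with MSCs had 50.9, 53.4, 59.9, 53.2 and 57.4 CPM. Both groups were just above the sham mice, without overlap. Mice with IL-4 MSCs had 106, 114, 97.0, 117 and 92.5 CPM, all above every other mouse. IL-4 MSCs were 1.88-fold above PBS (log2 0.91 ± 0.07, edgeR adjusted p = 1.56e-11) and 1.91-fold above MSCs, while PBS was 1.21-fold above Sham (log2 0.27 ± 0.07, edgeR adjusted p = 0.00538). Unlike Arg1, Slc7a2 was high in Sham, and per 100 CPM of macrophage markers it was 83.1 ± 20.1 CPM in Sham, 37.5 ± 4.23 in PBS and 27.0 ± 2.46 with IL-4 MSCs. These markers rose from 59.0 CPM in Sham to 393 CPM with IL-4 MSCs, so the ratio fell while Slc7a2 rose. It is not a level per macrophage, since the cells that held Slc7a2 were not identified. kallisto divided some reads of Slc7a2 with other transcripts, as it did for Arg2, since the estimated counts of both were not whole.

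Ass1 and Asl encode argininosuccinate synthase and argininosuccinate lyase, which remake arginine from citrulline and are steps of the urea cycle. Ass1 (chr2:31470207-31520672, plus strand) ranged over all 34 mice from 24.6 to 42.3 CPM, and its group means at 1 wpi were 28.8 ± 2.99 in PBS, 30.2 ± 4.00 with MSCs and 29.9 ± 3.71 with IL-4 MSCs, against 31.1 ± 3.58 in Sham. Asl (chr5:130011258-130029247, minus strand) ranged from 10.1 to 15.2 CPM, with means between 11.7 in Sham and 13.2 in PBS at 3 wpi. Neither was called in any of the 18 comparisons in the fit of all groups with TMM factors. In other settings, at 1 wpi Asl was called higher with IL-4 MSCs than in Sham with library-size scaling alone (log2 0.21, edgeR adjusted p = 0.0489) and with a striatal score as a covariate (0.21, edgeR adjusted p = 0.00713). Ass1 was called higher at 3 wpi than at 1 wpi with IL-4 MSCs when replicate 3 of 1 wpi or replicate 2 of 3 wpi was left out (edgeR adjusted p = 0.0478 and 0.0329). Replicate 2 of 3 wpi had the lowest striatal markers of its group, 366 CPM. With the striatal score as a covariate the log2 difference of Ass1 between these times was 0.04 (edgeR adjusted p = 0.726). For IL-4 MSCs against PBS at 1 wpi, the 95% interval of the log2 difference was -0.18 to 0.29 for Ass1 and -0.18 to 0.16 for Asl, so a difference of the size of Slc7a2 lay outside both. Over the 34 mice, which share their groups, the log2 levels of Ass1 and Asl had a Pearson correlation of -0.59, given as a description.

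Odc1 (chr12:17544794-17551505, plus strand) encodes ornithine decarboxylase, the first and rate-limiting enzyme of polyamine synthesis, and Sat1 (chrX:155213132-155216449, minus strand) encodes spermidine/spermine N1-acetyltransferase, which starts the breakdown of polyamines. Both were higher in the injured mice of 1 wpi than in Sham, and higher again after IL-4 MSCs. Over the 34 mice their log2 levels had a Pearson correlation of 0.86, as a description. The sequences upstream of these genes are shown because they moved together across the groups. They are from RefSeq on GRCm38.p6, which held promoters for 4 of the 10 genes, Ass1, Smox, Odc1 and Sat1. They are printed on the gene's strand up to the base before the annotated gene, and capitals mark GC boxes (GGGCGG on either strand), which are known to bind Sp1.
Odc1, chr12:17544623-17544793, plus strand: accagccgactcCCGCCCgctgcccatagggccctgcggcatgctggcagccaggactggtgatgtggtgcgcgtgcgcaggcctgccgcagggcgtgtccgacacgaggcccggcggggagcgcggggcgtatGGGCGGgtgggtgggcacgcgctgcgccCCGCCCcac
Sat1, chrX:155216450-155216699, minus strand: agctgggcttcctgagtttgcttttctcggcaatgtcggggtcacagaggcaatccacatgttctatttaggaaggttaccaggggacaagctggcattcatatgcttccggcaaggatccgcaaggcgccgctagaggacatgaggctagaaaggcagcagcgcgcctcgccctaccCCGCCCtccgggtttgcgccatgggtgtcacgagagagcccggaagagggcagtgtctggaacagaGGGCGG
In the 250 bases before the RefSeq start, 80% of bases were G or C in Odc1 and 59.6% in Sat1, with 4 and 2 GC boxes. A GC box was found in 32.7% of 32851 such windows. The STAT6 motif (TTC and GAA with 4 bases of any kind between), the E-box CACGTG, the cyclic AMP response element TGACGTCA and the TATA box TATAAA were in 5.85%, 6.02%, 1.55% and 12.4% of all windows, each searched on both strands. None of these was in the Odc1 or Sat1 window, and of the 4 genes Ass1 held 1 E-box. The first 3 of these motifs read the same on both strands. A match is not a bound site, and the absence of these letters concerns only this window.

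In the data, Odc1 had 54.6, 52.9, 55.2, 56.6 and 58.7 CPM in the sham mice. At 1 wpi it had 60.1, 70.7, 66.3, 63.6 and 63.9 CPM with PBS and 64.6, 58.9, 74.0, 63.3 and 59.7 CPM with MSCs. Every injured mouse at 1 wpi was above every sham mouse, though the lowest mouse with MSCs was only just so. With IL-4 MSCs the 5 mice had 80.7, 78.6, 79.1, 74.1 and 75.1 CPM. The log2 difference from Sham was 0.22 ± 0.05 in PBS (edgeR adjusted p = 0.00394), 0.21 ± 0.05 with MSCs (0.00642) and 0.48 ± 0.05 with IL-4 MSCs (1.11e-08). IL-4 MSCs were 1.19-fold above PBS (edgeR adjusted p = 0.000784) and 1.21-fold above MSCs (edgeR adjusted p = 0.000493).

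Sat1 had 27.0, 29.6, 28.8, 25.8 and 30.3 CPM in the sham mice and 33.4 to 35.9 CPM in PBS at 1 wpi. With MSCs the mice had 37.6, 37.4, 39.1, 34.9 and 37.4 CPM, and with IL-4 MSCs 57.3, 62.2, 56.9, 52.7 and 50.8 CPM. No sham mouse reached the injured groups, and no mouse of the PBS or MSC groups reached IL-4 MSCs. IL-4 MSCs were 1.98-fold above Sham (log2 0.98 ± 0.06, edgeR adjusted p = 7.51e-14), 1.60-fold above PBS and 1.5-fold above MSCs. PBS was 1.23-fold and MSCs were 1.32-fold above Sham. The ratio of Sat1 to Odc1 TPM was 1.18 ± 0.0846 in Sham, 1.25 ± 0.0955 in PBS, 1.34 ± 0.107 with MSCs and 1.67 ± 0.10 with IL-4 MSCs, where the lowest mouse, at 1.57, was above every mouse of the other groups. In these mice Sat1 was thus raised by more than Odc1.

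Srm (chr4:148591503-148594993, plus strand) encodes spermidine synthase, which uses the putrescine that ornithine decarboxylase makes. It was not called at 1 wpi. Its means were 28.6 ± 1.80 CPM in Sham, 28.5 ± 1.90 in PBS, 30.3 ± 1.09 with MSCs and 29.7 ± 2.20 with IL-4 MSCs, and IL-4 MSCs against PBS had a 95% interval of the log2 difference of -0.07 to 0.19. Smox (chr2:131491496-131525922, plus strand) encodes spermine oxidase, which turns spermine back to spermidine. It had 31.4 to 35.0 CPM in Sham and 35.0, 37.9, 42.5, 37.5 and 37.8 CPM with IL-4 MSCs at 1 wpi. Its log2 difference from Sham was 0.22 ± 0.09, with an edgeR adjusted p of 0.0547, and by DESeq2 the adjusted p was 0.0364. Over the 18 alternatives the count of called genes in IL-4 MSCs against Sham at 1 wpi stayed at 5 in 9, and in the others Smox was called as well. IL-4 MSCs were 0.08 above PBS on the log2 scale, with a 95% interval of -0.10 to 0.26.

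The sham mice of week 1 and week 3 were 1 group in this test. With only the 2 sham mice of week 1, the count of called genes in PBS against Sham at 1 wpi went from 4 to 1, Sat1, and with MSCs against Sham from 4 to 2, Arg1 and Sat1, while all 5 calls of IL-4 MSCs against Sham were kept. Arg1 in PBS then had a log2 difference of 3.13 and an adjusted p of 0.0800. This fit held fewer sham mice, and its calls over all genes were not counted. Whether the loss of calls was particular to these genes was thus not tested.

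**Figure D3:**
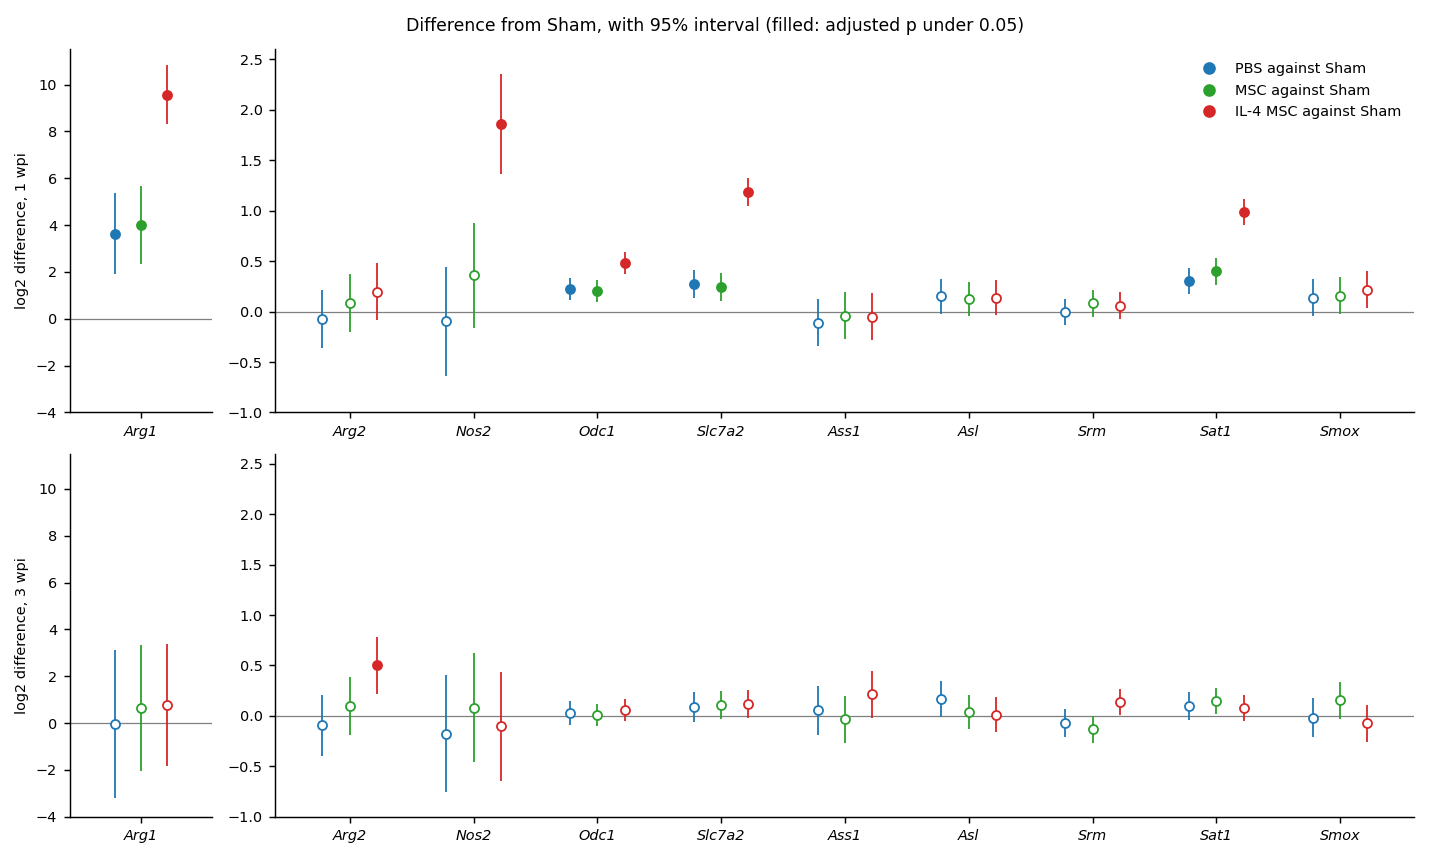
Log2 difference from Sham with its 95% interval for PBS (blue), MSCs (green) and IL-4 MSCs (red), at 1 wpi above and 3 wpi below. Arg1 has its own axis on the left, filled points had an edgeR adjusted p under 0.05, and all comparisons share the same 5 sham mice. At 1 wpi Arg1, Odc1, Slc7a2 and Sat1 were filled in all 3 treatments and Nos2 with IL-4 MSCs. At 3 wpi the filled point was Arg2 with IL-4 MSCs.

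At 3 wpi, the 5 genes raised at 1 wpi were not called in any comparison between groups. Of the 10 genes, 0 were called in PBS against Sham and 0 with MSCs against Sham, with 0 and 1 at an unadjusted p under 0.05 and 0 in both by DESeq2, beside 0.0292% and 1.15% of all genes. In IL-4 MSCs 1 gene, Arg2, was called against Sham, beside 4.27% of all genes, and against PBS, beside 2.94%, and 1 gene, Srm, against MSCs, beside 3.47%. Arg1 was at 0.138, 0.262, 0.193 and 0.132 CPM in PBS, at 0.226, 0.0860, 0.157, 0.166 and 0.802 CPM with MSCs and at 0.367, 0.506, 0.228, 0.136 and 0.398 CPM with IL-4 MSCs. These are 3 to 28 estimated counts, so that differences within them were hardly detectable at this depth. The 95% interval of the log2 difference of IL-4 MSCs from PBS was -1.96 to 3.64. For genes with more counts the interval was narrower. It was -0.12 to 0.18 for Slc7a2, -0.09 to 0.14 for Odc1 and -0.16 to 0.12 for Sat1.

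The fall from 1 wpi to 3 wpi was tested within each treatment. In IL-4 MSCs 6 of 10 genes fell (Arg1, Nos2, Odc1, Slc7a2, Sat1 and Smox), beside 2842 of the 17131 genes tested. In MSCs 4 fell (Arg1, Odc1, Srm and Sat1), beside 845, and in PBS 2 fell (Arg1 and Odc1), beside 839. None of the 10 rose. Called in either direction were 33%, 6.15% and 5.51% of all genes. In IL-4 MSCs Arg1 fell by 8.79 on the log2 scale, Nos2 fell by 1.96, Slc7a2 fell by 1.06, Sat1 fell by 0.91, Odc1 fell by 0.42 and Smox fell by 0.29. With the striatal score as a covariate Smox had a log2 difference of -0.24 and was not called (edgeR adjusted p = 0.0521), and the others were still called. The MSC and PBS calls rested on few mice. Without MSC replicate 3 at 1 wpi, 1 of the 4 genes was called, Sat1, and without PBS replicate 3 at 1 wpi, 0 of the 2. With only the MSC groups in the fit, 1 of the 4 was called, Arg1. The MSC count was 2 without replicate 1 at 1 wpi or replicate 3 at 3 wpi, and the PBS count was 1 without replicate 2 or 4 at 1 wpi or any mouse of 3 wpi.

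The effects of IL-4 MSCs at the 2 times were tested against each other. Against PBS, 3 of 10 genes (Nos2, Slc7a2 and Sat1) had a larger difference at 1 wpi, beside 673 of the 17131 genes tested. Called in either direction were 4.72% of all genes. Against MSCs, 4 did (Arg1, Nos2, Slc7a2 and Sat1) and Srm had a smaller one, beside 1021 and 325 genes, together 7.86% of all. Slc7a2 had a difference between the effects of 0.88 ± 0.10 on the log2 scale against PBS and 0.92 ± 0.10 against MSCs. For Arg1 against PBS it was 5.10 ± 1.92, with an edgeR adjusted p of 0.134, and DESeq2, which called 5 of the 10 genes, gave 3.06e-05. Against MSCs, Arg1 had 5.44 ± 1.47 and an edgeR adjusted p of 0.0175, which was 0.231 without MSC replicate 5 at 3 wpi, when the difference was 4.55 and 3 of the 10 genes were called. Without MSC replicate 3 at 1 wpi it was 6.53. For MSCs against PBS 0 of 10 genes and 0% of all genes were called by edgeR, where 0 and 572 had an unadjusted p under 0.05 and DESeq2 called 0 and 6.

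Arg2 had 4.27, 3.22, 3.76, 4.66 and 4.43 CPM with IL-4 MSCs at 3 wpi. It had 2.86, 2.81, 2.70 and 2.42 CPM in PBS and 2.73, 2.25, 3.48, 3.58 and 3.44 CPM with MSCs at that time. All 5 mice with IL-4 MSCs were above the PBS and sham mice, and they overlapped with MSCs. The log2 difference was 0.50 ± 0.14 from Sham (edgeR adjusted p = 0.0339) and 0.59 ± 0.15 from PBS (edgeR adjusted p = 0.0213). Srm had 30.3, 27.0, 31.6, 36.2 and 32.1 CPM with IL-4 MSCs and 29.4, 24.1, 24.3, 27.7 and 25.2 CPM with MSCs, overlapping groups with a log2 difference of 0.27 ± 0.07 (edgeR adjusted p = 0.0192).

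The IL-4 MSC group of 3 wpi, in which these calls were made, also had high markers of the striatum, a region below the cortex, in most mice. The summed level of 8 striatal markers, among them Drd1, Drd2 and Adora2a, was 1509, 366, 1469, 2480 and 1836 CPM with IL-4 MSCs replicates 1 to 5 at 3 wpi, against 219 to 512 in PBS, 256 to 701 with MSCs and 208 to 849 in Sham, and 8 of 8 were called higher with IL-4 MSCs than in PBS. Replicate 2, with 366 CPM of these markers, also had the lowest Arg2 and the lowest Srm of its group, and replicate 4, with 2480, the highest of both. In PBS at 3 wpi the order was otherwise, as replicate 4, with the most markers at 512 CPM, had the lowest Arg2, 2.42 CPM. With MSCs at 3 wpi replicate 4 had the most markers, 701 CPM, and the highest Arg2, 3.58 CPM. Replicate 5 of that group had the fewest, 256 CPM, and 3.44 CPM of Arg2. With the striatal score as a covariate, Arg2 had a log2 difference of 0.28 from Sham (adjusted p = 0.501) and 0.31 from PBS (adjusted p = 0.838), and Srm had 0.18 from MSCs (adjusted p = 0.435). None of the 3 was then called. Such high levels of these markers were seen in this group alone, so the score and the treatment cannot be told apart at 3 wpi. The sum of 4 hippocampal markers was 190 CPM in this group (154 to 249) and 190 in Sham (159 to 216). Their median log2 difference was -0.78 from Sham, with 1 of 4 called lower, and -0.77 from PBS, with 0 called. The part of the tissue sampled was not tested. At 1 wpi the striatal markers had 273 to 400 CPM in PBS, 235 to 848 with MSCs and 408 to 820 with IL-4 MSCs. PBS and IL-4 MSCs did not overlap, though 0 of the 8 markers were called between them. The 5 calls of IL-4 MSCs against PBS at 1 wpi were kept with that covariate. The Arg2 calls were also lost when only the 2 groups compared were in the fit, at adjusted p values of 0.123 against Sham and 0.177 against PBS, and so was that of Srm, at 0.223. Single mice also decided these calls. Arg2 against Sham was lost without IL-4 MSC replicate 1, 4 or 5 or Sham replicate 1, 3 or 4, and Arg2 against PBS without IL-4 MSC replicate 4 or 5 or PBS replicate 1, 3 or 4. Srm was lost without IL-4 MSC replicate 4 or 5 or MSC replicate 2, 3 or 5. Without IL-4 MSC replicate 2, both genes were called against PBS and against MSCs, 2 in each. With only the 3 sham mice of week 3, Arg2 against Sham had an adjusted p of 0.275.

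**Figure D4:**
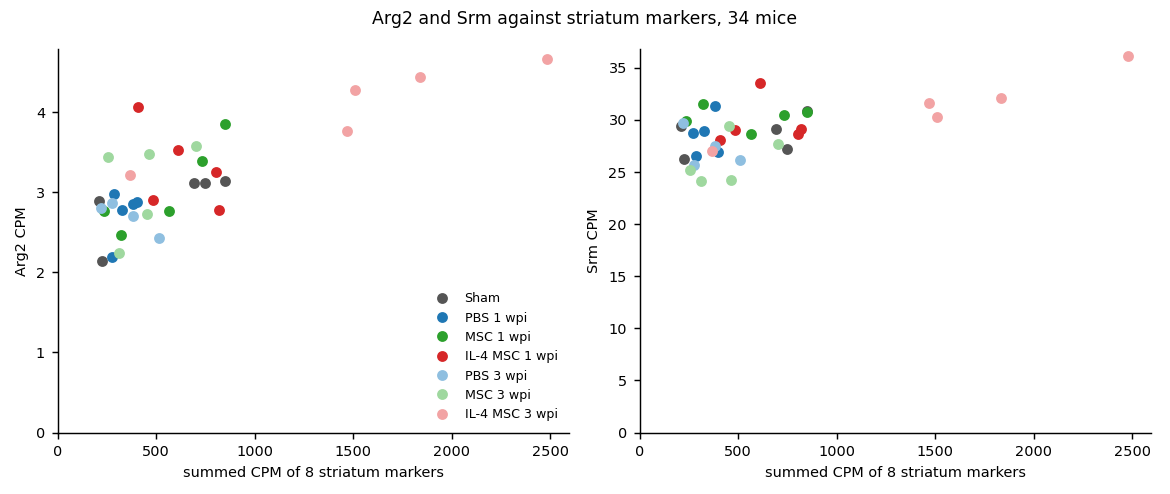
CPM of Arg2 (left) and Srm (right) against the summed CPM of 8 striatal markers, 1 point per mouse, with the 7 groups in colours. Of the 5 mice with IL-4 MSCs at 3 wpi, 4 had 1469 to 2480 CPM of the markers, beyond every other mouse, and replicate 2 had 366 CPM.

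The other genes of these pathways were followed as a list of 40, of which 38 were tested. Most were not called. The listed genes were not examined in the fit with the striatal score as a covariate. In IL-4 MSCs against PBS at 1 wpi 6 were higher and 3 lower, and the median log2 difference over the 38 was -0.0037, beside 17.4% of all genes called. Against MSCs 4 of 38 were higher and 0 lower, beside 8.69% of all genes, and against Sham 9 were higher and 5 lower, beside 37%. In PBS against Sham 3 were higher and 1 lower, beside 13.8%, and with MSCs against Sham 4 were higher and 2 lower, beside 17.8%. At 3 wpi 0 of 38 were called with IL-4 MSCs against PBS or MSCs by edgeR, with 7 and 6 at an unadjusted p under 0.05 and 0 in both by DESeq2.

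Among transporters, Slc7a7, the light chain of a carrier that exports cationic amino acids, was at 2.32 ± 0.148 CPM in Sham, 3.46 ± 0.544 in PBS, 3.62 ± 0.384 with MSCs and 4.96 ± 0.507 with IL-4 MSCs at 1 wpi. It was 0.52 ± 0.14 above PBS on the log2 scale (edgeR adjusted p = 0.00742). In the nitric oxide group, Nos3, the endothelial synthase, was at 11.7 ± 2.17 CPM in PBS and 18.1 ± 1.00 with IL-4 MSCs (log2 0.63 ± 0.10, edgeR adjusted p = 3.14e-05). Markers of endothelium moved with it, from 131 CPM in PBS (120 to 140) to 205 CPM with IL-4 MSCs (185 to 233), and their part was not tested. Ddah2, which clears methylated arginines that inhibit the synthases, was 0.29 ± 0.09 above PBS (edgeR adjusted p = 0.0247).

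Of enzymes that use arginine or make ornithine and proline, Gatm and Aldh18a1 rose. Gatm, which transfers the amidino group of arginine to glycine as the first step of creatine synthesis, was at 103 ± 9.42 CPM in Sham, 95.8 ± 4.92 in PBS and 147 ± 14.0 with IL-4 MSCs (log2 0.62 ± 0.07 against PBS, edgeR adjusted p = 1.27e-07). It was not called in PBS against Sham. Aldh18a1, which starts proline and ornithine synthesis from glutamate, was 0.21 ± 0.04 above PBS (edgeR adjusted p = 0.000668). The effects on Nos3 and Gatm were larger at 1 wpi than at 3 wpi against both PBS and MSCs.

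Genes that act after or on ornithine decarboxylase were called against PBS in both directions, beside 17.4% of all genes. Of 6 genes of polyamine synthesis and antizyme 2 were lower, of 6 of polyamine breakdown and transport 1 was higher, and of 4 of hypusination, the modification of a translation factor with a part of spermidine, 1 was lower. The medians of the log2 difference were -0.05, 0.0062 and -0.07. Sms, the synthase that makes spermine, was at 115 ± 2.99 CPM in PBS and 97.7 ± 3.82 with IL-4 MSCs, and fell by 0.24 on the log2 scale (edgeR adjusted p = 0.00291). Azin1, an inhibitor of antizyme that stabilizes ornithine decarboxylase, fell by 0.13 (edgeR adjusted p = 0.0224), and Eif5a2, a form of that translation factor, fell by 0.13 (edgeR adjusted p = 0.0393). Paox, which oxidizes the acetylated polyamines that Sat1 makes, was 0.15 ± 0.05 above PBS (edgeR adjusted p = 0.0248). Against MSCs none of these 4 was called, with log2 differences of -0.14 for Sms, -0.04 for Azin1, -0.03 for Eif5a2 and 0.14 for Paox (edgeR adjusted p of 0.149, 0.653, 0.750 and 0.0798). These are transcript levels, and polyamines were not measured.

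**Figure D5:**
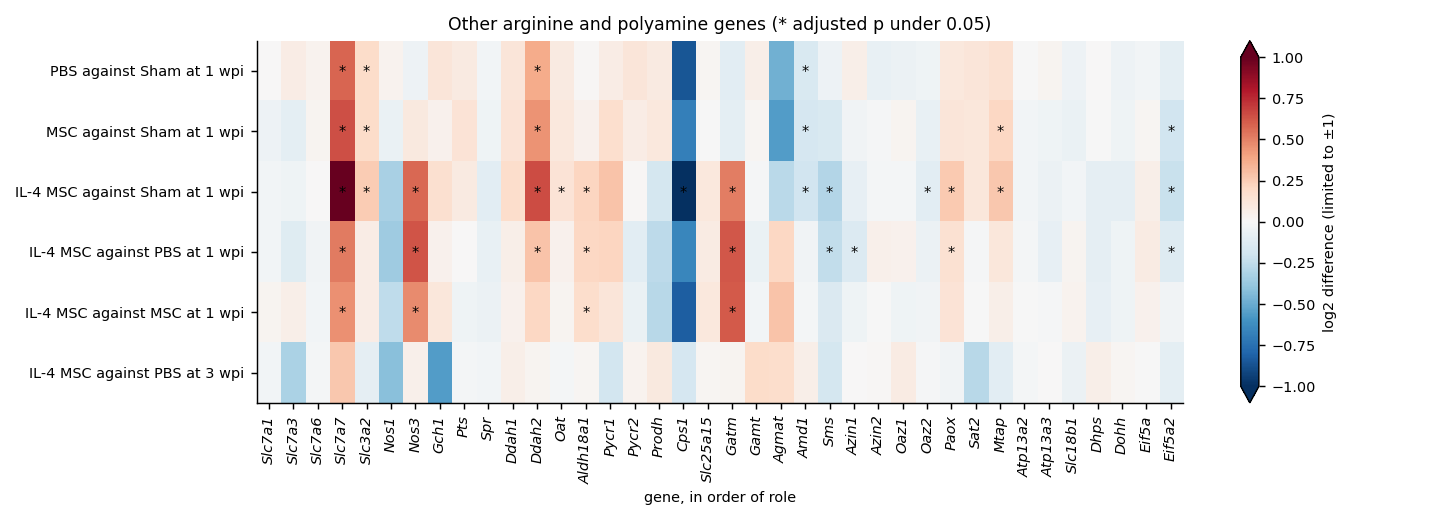
Log2 difference of the 38 other genes tested (columns, in order of role) in 6 comparisons (rows), from blue (lower) to red (higher), with the colour limited at 1 on either side. Stars mark an edgeR adjusted p under 0.05. Slc7a7, Nos3, Aldh18a1 and Gatm carried stars with IL-4 MSCs against Sham, PBS and MSCs at 1 wpi, and no gene did against PBS at 3 wpi.

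The genes whose log2 CPM most resembled a member over the 34 mice are given as a description, since the mice share their groups. For Arg1 they were Bach1, Srgn, Adam8, Tgfbi and Siglec1, with Pearson correlations of 0.97. For Odc1 they were Ctsb, Lgmn, Arl11, Gnai2 and Tm4sf1, at 0.93 to 0.94, of which Ctsb and Lgmn encode lysosomal proteases. For Ass1 they were Tmem91, Klhl13, Pcdh10, Cacna2d2 and Glra2, at 0.86 to 0.90. Among the 10 genes, Arg1 had correlations of 0.94 with Slc7a2 and Sat1, 0.91 with Odc1 and 0.88 with Nos2, and between -0.22 and 0.48 with the others.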

How the data were processed

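RNA-seq libraries of 34 mice were analysed, 1 per mouse, and p-values measure the spread between mice. Per the labels and the study's methods, the authors trimmed paired reads with cutadapt 2.4 and assigned them with kallisto 0.46 to protein-coding GENCODE vM23 transcripts (GRCm38). Estimated counts and TPM were summed per gene by the authors and deposited without normalization between libraries. Estimated counts, of which 63.7% were not whole, were rounded here for tests. TPM served for ratios between genes. The 63 deposited columns of the authors' comparisons (p-values, q-values and fold changes) were not used, and no other column of sample values was left unmatched. Groups came from the labels.

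In R 4.3.3, edgeR 4.0.16 was run with filterByExpr, TMM factors and a quasi-likelihood fit of all 34 libraries and 7 groups, and 18 comparisons were made, all two-sided, with Benjamini-Hochberg adjustment over 17131 genes at 0.05. Log2 CPM used a prior count of 2. DESeq2 1.42.0 and other choices were alternatives. The fit was tested on simulated data. The 10 genes, the pathway list and the markers were chosen with earlier results of these data known. The rule for named genes was every one of the 10, those of the pathway list called in IL-4 MSCs against PBS at 1 wpi, and the 5 genes most correlated with Arg1, Ass1 and Odc1. Arg1 per macrophage marker without Mrc1 was added after seeing the data. Summed marker CPM name no cell type. Libraries held 29838423 to 41554322 estimated counts. Replicates of a group correlated across genes with r of 0.981 to 0.994 in 66 pairs. The number before the dash in the labels is the same for a whole treated group, so anything it stands for cannot be told apart from the group. Gene positions are from GENCODE vM21, on the same build.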

Additional observations from a re-analysis of the deposited data

Results flagged for a closer look

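Of 70 groups of values (10 genes in 7 groups), 9 held a mouse set apart from the rest of its group by Dixon's test at its 95% level, where chance gives about 1 in 20. Arg1 was set apart at 9.05 CPM in MSC replicate 3 at 1 wpi, at 106 CPM, the lowest of its group, in IL-4 MSC replicate 5 at 1 wpi, and at 0.802 CPM in MSC replicate 5 at 3 wpi. That last mouse had 28 estimated counts of Arg1, 153 CPM of macrophage markers, the most of its group, and also a separate Nos2 value, 1.15 CPM. Nos2 was low at 0.622 CPM in PBS replicate 2 at 3 wpi. Arg2 was low at 2.14 CPM in Sham replicate 3 and at 2.19 CPM in PBS replicate 2 at 1 wpi. Odc1 was high at 61.9 CPM in MSC replicate 1 at 3 wpi, and Srm was high at 33.6 CPM in IL-4 MSC replicate 2 at 1 wpi.

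The effect of IL-4 MSCs differed between 1 wpi and 3 wpi by edgeR's test of the difference itself in 8 cases. Against PBS, the log2 effect at 1 wpi exceeded that at 3 wpi by 1.88 for Nos2, 0.88 for Slc7a2 and 0.70 for Sat1. Against MSCs it did so by 5.44 for Arg1, 1.68 for Nos2, 0.92 for Slc7a2 and 0.66 for Sat1, and for Srm the effect was lower at 1 wpi, at -0.29. The Srm difference was called in 6 of 27 alternatives.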

How the results depend on the processing

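Of 46 calls of a gene in a comparison, 29 were kept in every alternative run, and none of the 870 refits reversed a call's direction. The counts of 5 genes in IL-4 MSCs against PBS and against MSCs at 1 wpi were the same in all 17 alternatives of each. With only sham mice of the same week, the count for 1 wpi was 1 with PBS and 2 with MSCs, and for 3 wpi it was 0 with IL-4 MSCs. With only the groups compared, or with the striatal score as a covariate, it was 0 in IL-4 MSCs against Sham, PBS and MSCs at 3 wpi. For 3 wpi against 1 wpi in MSCs, only the groups compared gave 1. DESeq2 gave 5 for IL-4 MSCs against PBS, 1 wpi minus 3 wpi. Leaving out 1 mouse gave 0 to 1 genes in IL-4 MSCs against Sham at 3 wpi, 0 to 2 against PBS and 0 to 2 against MSCs, 0 to 2 in PBS and 1 to 4 in MSCs at 3 wpi against 1 wpi, and 3 to 6 for IL-4 MSCs against MSCs, 1 wpi minus 3 wpi. The mice concerned are named beside these results. The fits without a mouse or a group held fewer mice, and otherwise the cause was not tested. Calls over all genes were not counted in the edgeR refits.

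The replicate numbers shared by groups were not taken as pairs, since in no comparison did every same-numbered pair correlate above 0.1, with values from -0.46 to 0.40. Some pairs did, as in MSCs against PBS with 3 of 5 pairs at 1 wpi and 3 of 4 at 3 wpi, so a partial sharing is not excluded. With the replicate number as a block, the count was 6 in IL-4 MSCs against Sham at 1 wpi, with Smox added, and in the other 17 comparisons it changed no call, with 5 in IL-4 MSCs against PBS and against MSCs at 1 wpi. Low counts limit Arg1 outside IL-4 MSCs at 1 wpi and Nos2 in all groups.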
